A study of Mus musculus with 2 samples.

Results

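The 7 microRNA genes Mir34a, Mir34b, Mir34c, Mir192, Mir194-1, Mir194-2 and Mir215 were followed in small RNA libraries of newborn mouse heart. They were chosen by name, as genes linked to the tumour suppressor p53, from the 1973 gene rows of the deposited tables, and all 7 were among the rows. Both libraries came from heart tissue of B6NCrl mice, a C57BL/6N substrain, at postnatal day 0. Replicate 1 was the heart of pup 1 and replicate 2 the heart of pup 3, with 1 library per heart, no treatment and no second group. Sex was not collected, and the size range of the libraries was below 30 nt. The design therefore gives the level of each gene, the ratios between neighbouring genes and the difference between 2 hearts. Because each heart gave 1 library, animal and library preparation cannot be told apart.

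p53 is a transcription factor that is stabilised by DNA damage and other stress and that halts the cell cycle or triggers cell death. The Mir34 genes are among its best known microRNA targets, and their products repress cyclins, cyclin-dependent kinases and survival factors such as Bcl2. In heart, miR-34a is known from ageing and from work on the loss of cardiomyocyte proliferation after birth. Mir34b and Mir34c form a separate cluster and, together with the Mir449 genes, are known from multiciliated epithelium. Mir192, Mir194-1, Mir194-2 and Mir215 lie in 2 clusters that each join a Mir194 copy to Mir192 or Mir215. They are known from gut, liver and kidney epithelium, respond to p53 and repress its inhibitor Mdm2.

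The mature sequences show which of these genes can act on the same targets and which can be told apart by short reads. They were taken from RefSeq on GRCm38.p6, where all 7 genes had a hairpin and a mature entry, with 12 different mature sequences. They are written 5′ to 3′ with the seed, bases 2 to 8, in capitals. The first group carries the seed of the Mir34 genes, with the relatives miR-449a and miR-449c, and mmu-miR-34c-5p is named only.
mmu-miR-34a-5p: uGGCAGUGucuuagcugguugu
mmu-miR-34b-5p: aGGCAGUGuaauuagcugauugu
mmu-miR-449a-5p: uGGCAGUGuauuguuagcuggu
mmu-miR-449c-5p: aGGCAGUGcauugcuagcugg
The second group is the 3p arms of the Mir34b and Mir34c cluster, which share another seed.
mmu-miR-34b-3p: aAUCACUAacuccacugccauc
mmu-miR-34c-3p: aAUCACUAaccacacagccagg
The third group is the 5p arms of Mir192 and Mir215.
mmu-miR-192-5p: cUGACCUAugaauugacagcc
mmu-miR-215-5p: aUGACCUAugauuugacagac
The fourth group is the sequence that both Mir194 genes give and the 3p arms that differ between them.
mmu-miR-194-5p: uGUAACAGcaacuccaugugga
mmu-miR-194-1-3p: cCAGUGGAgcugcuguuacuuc
mmu-miR-194-2-3p: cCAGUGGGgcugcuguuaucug

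Within a seed group the rest of the sequence differed to unequal degrees. miR-192-5p and miR-215-5p were identical at 18 of 21 positions, counted from 1 at the 5′ end, and differed by C1A, A12U and C20A, written from miR-192-5p to miR-215-5p. miR-34b-3p and miR-34c-3p matched at 17 of 22 positions, miR-34a-5p and miR-449a-5p at 15 of 22, and miR-34a-5p and miR-34b-5p at 11 of 22, with no gaps allowed. miR-34b-5p has 23 bases and miR-34a-5p 22, and a gap after the seed would raise their match. These matches therefore do not rank the relatives of miR-34a-5p by likeness. The 3p arms of Mir194-1 and Mir194-2 matched at 18 of 22 positions, and 1 of the 4 differences, A8G, lay in the seed.

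Shared sequence bears on the counts, since the tables keep reads with several matches out of the gene rows. Such reads made up 35.9% of the reads of replicate 1 and 34.6% of those of replicate 2. The precursors of Mir194-1 and Mir194-2 shared a stretch of 22 bases that is exactly miR-194-5p. A read that lies within this stretch cannot be assigned to either copy, so the counts of both Mir194 genes leave out such reads and are uncertain. For the other 5 genes the longest stretch shared with any of 1893 other precursors, on either strand, was 11 to 13 bases, below the 20 bases used here to mark repeated sequence. The tables give counts per precursor, so the 5p and 3p arms cannot be separated.

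All 7 genes were detected in both hearts, with between 76 and 4682 counts on the strand of the gene. Together they took 0.146% ± 0.00443 of the sense counts (SD, n = 2), which were 6373797 in replicate 1 and 7630427 in replicate 2. Levels are given as CPM, sense counts scaled to a library total of 1000000, with exact Clopper-Pearson 95% intervals that cover counting error only. A gene with 3 counts would stand at 0.471 CPM in replicate 1 and 0.393 CPM in replicate 2. Counts on the opposite strand of the 7 genes were at most 2 per library. Of the 6 cardiomyocyte markers all were detected, led by Mir208b, hosted by the myosin gene Myh7, at 101723 and 108150 CPM. Mir208a, at 15419 and 11988 CPM, and Mir499, at 5106 and 4847 CPM, lie in introns of other myosin genes. The markers Mir1a-1, Mir133a-1 and Mir133a-2, whose mature sequences have further copies, stood at 8.89, 8.24 and 2.08 CPM on average.

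Mir34a (ENSMUSG00000065493.1, chr4:150068454-150068555, plus strand, mm10) was the highest of the Mir34 genes. It had 2551 counts or 400.2 CPM in replicate 1 (95% interval 385 to 416) and 3290 counts or 431 CPM in replicate 2 (417 to 446). Its precursor overlaps no annotated gene except for its last 17 bases, which overlap an exon of Gm37795 on the same strand, a gene model of the annotation's TEC class. The mean was 416 ± 21.9 CPM, which ranked it 102nd of all genes counted.

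Mir34c (ENSMUSG00000065587.1, chr9:51103034-51103110, minus strand) had 1204 counts or 189 CPM in replicate 1 and 1407 counts or 184 CPM in replicate 2. Mir34b (ENSMUSG00000065492.1, chr9:51103562-51103645, minus strand) had 94 counts or 14.7 CPM in replicate 1 (interval 11.9 to 18.0) and 76 counts or 9.96 CPM in replicate 2 (7.85 to 12.5). The precursors are 451 bases apart, with Mir34b upstream, and both lie opposite an intron of Btg4, a gene of the antiproliferative BTG family. The pair is known to be made from 1 primary transcript. Mir34b was the lowest of the 7 genes in both hearts.

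Mir215 (ENSMUSG00000065562.1, chr1:185313581-185313692, plus strand) was the highest of the 7 genes by the counts as listed, which lack the reads that match both Mir194 copies. It had 3825 counts or 600.1 CPM in replicate 1 (581 to 619) and 4682 counts or 614 CPM in replicate 2 (596 to 631), and ranked 88th. Mir194-1 (ENSMUSG00000065581.1, chr1:185313319-185313385, plus strand), 195 bases upstream, had 591 counts or 92.7 CPM and 891 counts or 117 CPM. Mir215 lies in an exon and Mir194-1 in an intron of the noncoding gene 2010103J01Rik. Both lie opposite an intron of Iars2, which encodes the mitochondrial isoleucyl-tRNA synthetase.

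Mir192 (ENSMUSG00000065523.1, chr19:6264844-6264932, plus strand) had 517 counts or 81.1 CPM in replicate 1 (74.3 to 88.4) and 557 counts or 73.0 CPM in replicate 2 (67.1 to 79.3). Mir194-2 (ENSMUSG00000065582.1, chr19:6264643-6264728, plus strand), 115 bases upstream, had 340 counts or 53.3 CPM and 495 counts or 64.9 CPM. This pair overlaps no other annotated gene on either strand. By CPM, Mir192 was higher in replicate 1 and its neighbour Mir194-2 in replicate 2. The intervals of Mir192 overlapped, however, and it did not pass the test between hearts described below. The Mir194-2 counts lack the reads that match both Mir194 copies.

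**Figure D1:**
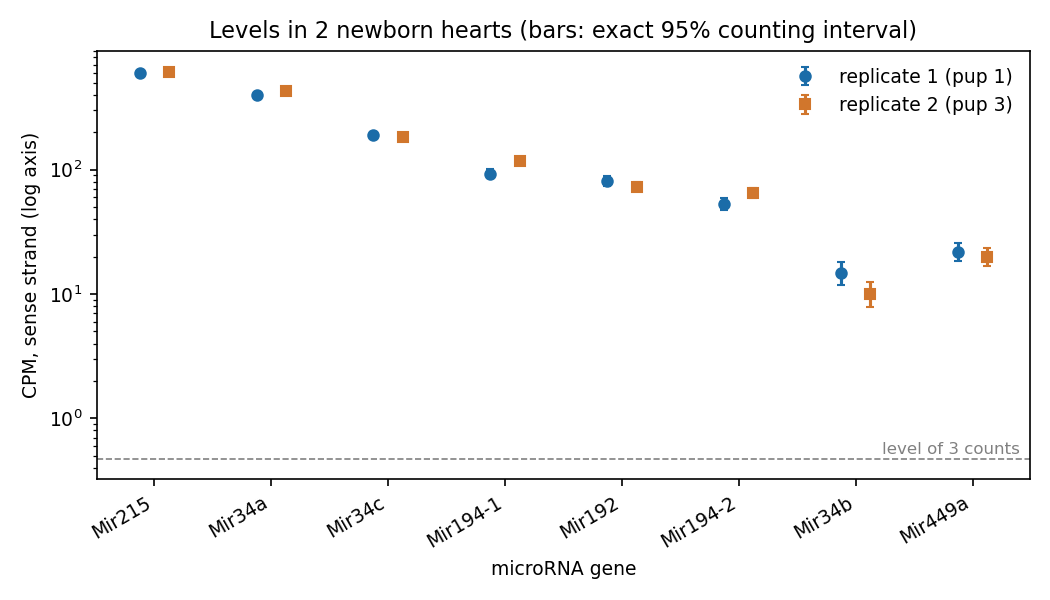
Level of each of the 7 genes and of the seed relative Mir449a in CPM on a log axis, 1 point per heart, with bars for the exact 95% counting interval and a dashed line at 3 counts in replicate 1. Mir215 and Mir34a stand highest, at 607 and 416 CPM on average, and Mir34b lowest of the 7 at 12.4 CPM. The points of both Mir194 genes lack the reads that match both copies.

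The order of the levels, by the counts as listed, was the same in both hearts: Mir215, Mir34a, Mir34c, Mir194-1, Mir192, Mir194-2, Mir34b. At every step the lower heart of the higher gene lay above the higher heart of the lower gene. The steps that involve the Mir194 genes and Mir192 differed between hearts. Mir194-1 exceeded Mir192 by 1.14-fold in replicate 1 (interval 1.01 to 1.29) and 1.60-fold in replicate 2 (1.44 to 1.78). Mir192 exceeded Mir194-2 by 1.52-fold in replicate 1 (1.32 to 1.75) and 1.13-fold in replicate 2, where the interval of 0.995 to 1.27 included equal levels. The order within this trio also rests on the uncertain Mir194 counts. So does the place of both Mir194 genes below Mir34c, Mir34a and Mir215, since reads that match both copies are left out. Capture of different sequences into a library can differ, and levels are per precursor and not scaled by length, with mature lengths of 21 to 23 bases. The Mir34 genes gave 42.2% of the counts of the 7 genes in replicate 1 and 41.9% in replicate 2. Mir215 alone gave 41.9% and 41.1%. The total of the 7 genes lacks the reads that match both Mir194 copies, and with those reads these shares would be lower.

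**Figure D2:**
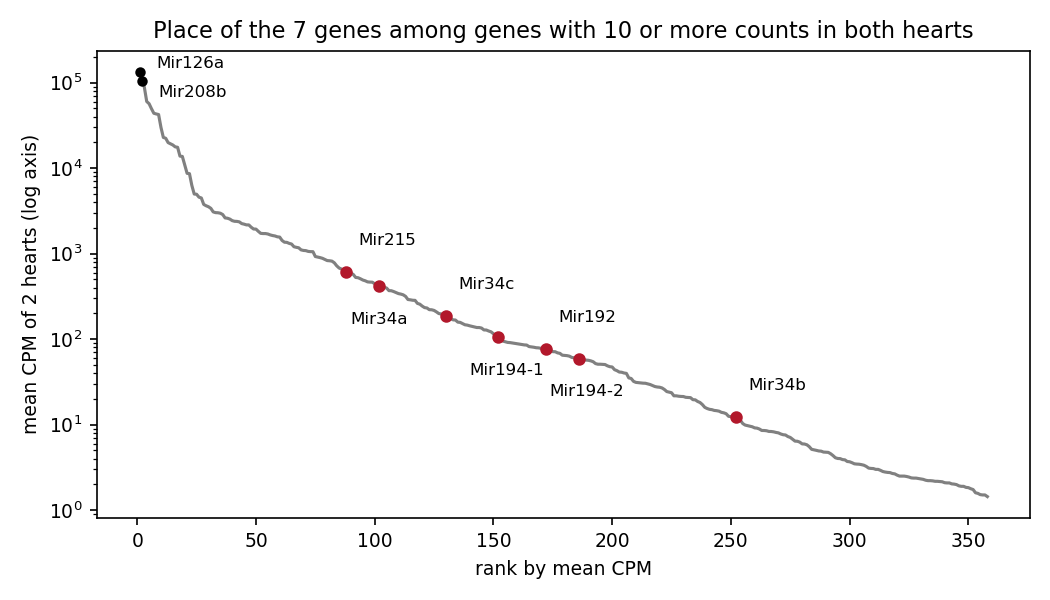
Mean CPM of 2 hearts on a log axis against rank for the 358 genes with 10 or more counts in both hearts, with the 7 genes in red and Mir126a and Mir208b in black. The 7 genes rank from 88 (Mir215) to 252 (Mir34b), and 5 of them lie above the median of 64.6 CPM.

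The p53-linked genes were thus of middle abundance. The median over the 358 genes with 10 or more counts in both hearts was 64.6 CPM, and 5 of the 7 genes lay above it. Mir194-2, at 59.1 ± 8.15 CPM, was just below it on average, and Mir34b, at 12.4 ± 3.39 CPM, further below. In replicate 2 Mir194-2 stood at 64.9 CPM, and its counts lack the reads that match both copies. Its place below the median is therefore uncertain.

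Genes of 1 cluster differed in level by amounts that depended on the cluster. Mir34c exceeded Mir34b by 12.8-fold in replicate 1 (interval 10.4 to 16.0) and 18.5-fold in replicate 2 (14.7 to 23.6), a mean log2 ratio of 3.94 ± 0.38 (SD, n = 2). Mir215 exceeded Mir194-1 by 6.47-fold (5.93 to 7.07) and 5.25-fold (4.89 to 5.65), a mean log2 ratio of 2.54 ± 0.21. The gap was far narrower in the other Mir194 cluster, where Mir192 over Mir194-2 had a mean log2 ratio of 0.39 ± 0.31. The Mir194 counts lack the reads that match both copies, so with those reads the ratios to Mir194 would be lower.

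**Figure D3:**
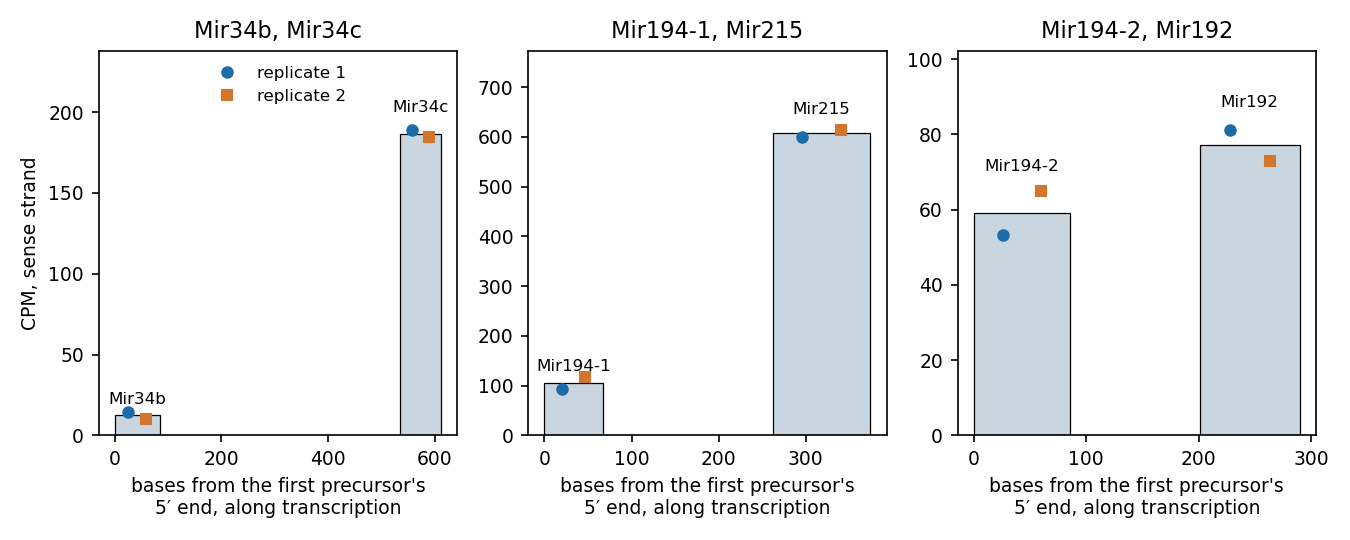
Mean CPM of 2 hearts (grey bars, as wide as the precursor) and each heart (points) along the 3 clusters, with distance in bases from the 5′ end of the upstream precursor. Mir34c stands above Mir34b by 12.8-fold and 18.5-fold, and the bars of Mir194-1 and Mir194-2 lack the reads that match both copies.

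By the counts as listed, the upstream precursor was the lower one in all 3 clusters. In 2 of the 3 it was a Mir194 copy, whose counts lack the reads shared by both copies, and for Mir192 over Mir194-2 in replicate 2 the interval of 0.995 to 1.27 included equal levels, so the direction in those clusters is uncertain. Between clusters, Mir215 exceeded Mir192, which has the same seed, by 7.40-fold in replicate 1 (6.75 to 8.13) and 8.41-fold in replicate 2 (7.70 to 9.19). Mir215 and Mir192 shared no stretch of 20 bases or more with the other precursors compared, and the rest of the genome was not searched. Their summed level was 681 CPM in replicate 1 and 687 CPM in replicate 2. Mir194-1 exceeded Mir194-2 by 1.74-fold (1.52 to 1.99) and 1.80-fold (1.61 to 2.01). By the counts as listed, the gene on chromosome 1 was higher than its relative on chromosome 19 in both comparisons. For the Mir194 genes this rests only on reads that could be placed on 1 copy, so the ratio of the copies is uncertain. Mir34a exceeded Mir34b and Mir34c together by 1.97-fold (1.84 to 2.10) and 2.22-fold (2.09 to 2.36).

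Seed relatives outside the 7 genes added little. The Mir449 genes lie in an intron of Cdc20b on chromosome 13. Mir449a (ENSMUSG00000065575.1) had 139 counts or 21.8 CPM in replicate 1 and 152 counts or 19.9 CPM in replicate 2. Mir449b and Mir449c had 0 counts in both hearts, where 3 counts would be 0.471 and 0.393 CPM and the exact 95% intervals reach 0.579 and 0.483 CPM. Genes whose RefSeq entries carry the seed GGCAGUG (Mir34a, Mir34b, Mir449a and Mir449c) summed to 437 and 461 CPM, of which Mir34a gave 400.2 and 431 CPM. This sum is incomplete for the Mir34 family, since it leaves out Mir34c at 189 and 184 CPM. Of all mouse mature entries in the RefSeq table, the seed AUCACUA was found only in Mir34b and Mir34c, UGACCUA only in Mir192 and Mir215, and GUAACAG only in the Mir194 genes.

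Between the hearts the 7 genes differed by small amounts, most of all the low Mir34b and the Mir194 copies. Ratios were tested with a 2-sided exact binomial test given the library totals over the 435 genes whose counts in both libraries summed to at least 10. Values of p were adjusted over these genes by Benjamini-Hochberg, and an adjusted p under 0.05 was called. This test compares 2 libraries, not conditions, and holds counting error only. It called 4 of the 7 genes, 3 higher in replicate 2 and 1 higher in replicate 1. Over all genes tested, 31.0% were called (135 of 435), 19.1% higher in replicate 2 and 12.0% higher in replicate 1. Of the 275 genes with 100 or more counts together, as all 7 genes have, 48.0% were called. A share of 4 in 7 is near that background and is no result about these genes.

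Mir194-1 was 1.26-fold higher in replicate 2 (interval 1.13 to 1.40, exact binomial adjusted p = 6.16e-05), with 92.7 and 117 CPM. Mir194-2, its copy on chromosome 19, was 1.22-fold higher in replicate 2 (1.06 to 1.40, exact binomial adjusted p = 0.0189). The other gene of each cluster did not pass the test. Mir215 had a log2 ratio of replicate 2 over replicate 1 of 0.03 (exact binomial adjusted p = 0.551) and Mir192 of -0.15 (exact binomial adjusted p = 0.217), with intervals of the ratio of 0.979 to 1.07 and 0.797 to 1.02. The difference between the genes of a cluster in this ratio was not tested. The Mir194 counts come from reads that could be placed on 1 copy, so they do not show the total of miR-194-5p.

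Mir34a was 1.08-fold higher in replicate 2 (1.02 to 1.13, exact binomial adjusted p = 0.0169). Mir34b was 1.48-fold higher in replicate 1 (1.08 to 2.03, exact binomial adjusted p = 0.0357), on 94 and 76 counts. Mir34c, at 189 and 184 CPM, had a ratio of replicate 2 over replicate 1 with an interval of 0.903 to 1.06 (exact binomial adjusted p = 0.759). Without Mir126a, the most abundant gene, in the library totals, 2 of the 7 genes were called, beside 30.6% of all genes, with Mir194-1 higher in replicate 2 and Mir34b in replicate 1. When a coefficient of variation of 0.1 between animals was preset, the edgeR exact test called 0 of the 7 (0 at an unadjusted p under 0.05) and 0.230% of all genes.

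**Figure D4:**
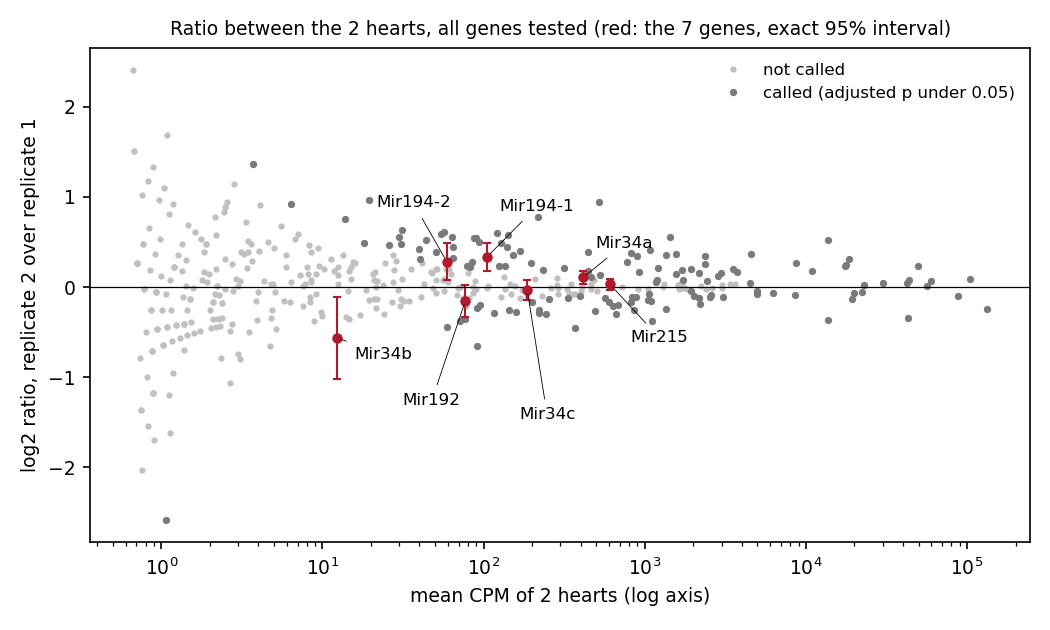
Log2 ratio of replicate 2 over replicate 1 against mean CPM (log axis) for the 435 genes tested, with called genes in dark grey and the 7 genes in red with exact 95% intervals. The intervals of Mir194-1, Mir194-2 and Mir34a lie above 0 and that of Mir34b below.

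The hearts were set side by side over all 7 genes as well. Their median absolute log2 ratio was 0.15, against 0.21 over all genes tested, and their median log2 ratio was 0.03, against 0.02. Only 275 of the 435 genes tested had 100 or more counts together, as all 7 genes have. Counting error is larger at low counts, so the absolute medians are not matched and do not show that the 7 genes were steadier. As a share of the mean, the SD ran from 1.57% for Mir215 and 1.71% for Mir34c, through 5.26% for Mir34a, 7.45% for Mir192, 13.8% for Mir194-2 and 16.2% for Mir194-1, to 27.4% for Mir34b.

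Markers of other cell types were read beside the 7 genes, first those of epithelium, where these microRNAs are best known. The 8 epithelial genes counted (Mir200a, Mir200b, Mir200c, Mir141, Mir429, Mir203, Mir205 and Mir375) summed to 328 CPM in replicate 1 and 302 CPM in replicate 2, led by Mir203 at 174 ± 3.22 CPM, which is above Mir194-1, Mir192, Mir194-2 and Mir34b. Mir215 alone was higher than this sum in both hearts. Mir205 and Mir375, at 1.99 and 1.90 CPM on average, rested on 10 to 17 counts per library. Of these 8 genes, Mir429 was called, higher in replicate 1 at 80.6 and 62.0 CPM, and 7 were not called. Over all genes tested, 31.0% were called. Mir122, the defining microRNA of hepatocytes, had 35.8 CPM in replicate 1 and 44.6 CPM in replicate 2. It was called higher in replicate 2 (exact binomial adjusted p = 0.0332). Blood markers called higher in replicate 2 were Mir451a, at 931 and 1237 CPM, and Mir155, at 113 and 169 CPM. The erythroid Mir144, at 112 and 71.2 CPM, was called higher in replicate 1. The other blood markers counted were not called. These were Mir486 at 71.2 and 71.3 CPM, Mir223 at 409 and 396 CPM, and Mir150 at 32.2 and 29.4 CPM. Together the blood markers came to 0.125% ± 0.0188 of the counts for the erythroid list, led by Mir451a, and 0.0575% ± 0.00284 for the leukocyte list, led by Mir223 and without Mir142, which was not among the rows. Of 5 neuronal genes 4 had 0 counts in both hearts and Mir9-3 had 6 and 7 counts, but the Mir124a genes give the same mature microRNA as each other and so do the Mir9 genes, so these counts do not show the level. Mir126a, the endothelial marker, was called higher in replicate 1, at 144115 and 122186 CPM. Of the cardiomyocyte markers, Mir208b was called higher in replicate 2, Mir208a and Mir499 were called higher in replicate 1, and 3 were not called. The part of these cell types in the levels of the 7 genes was not tested. In heart tissue, fewer cells of a type and less RNA per cell cannot be told apart.

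Other microRNAs tied to p53 reached far above the 7 genes, and only Mir141 stood below the lowest of them, Mir34b. Of 10 genes listed as induced by p53 or processed with its help, 9 were counted (Mir605 was not among the rows), and they took 12.3% ± 0.501 of the counts. Most of that was Mir143, a smooth muscle microRNA, at 91427 and 85077 CPM. Mir22, Mir107, Mir15a and Mir145a followed at 22348 ± 611, 4948 ± 118, 3006 ± 20.1 and 2617 ± 14.6 CPM. The epithelial pair Mir200c and Mir141, which respond to p53 in epithelium, stood at 21.5 and 3.87 CPM on average. Between hearts 2 of the 9 were called higher in replicate 2, Mir16-1 and Mir16-2, and 3 higher in replicate 1, Mir107, Mir143 and Mir22. The shares over all genes tested were 19.1% and 12.0%. All of the 9 but Mir141 had 100 or more counts together, and of such genes 48.0% were called in either direction. The median log2 ratio of the 9 was -0.01, against 0.02 over all genes tested. Mir16-1 and Mir16-2 give the same mature microRNA, so their counts, 1697 ± 155 and 444 ± 85.3 CPM, are uncertain.

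All 6 genes listed for microRNAs reported to repress p53 itself were detected, at 1.89% ± 0.190 of the counts. Mir30d led with 16115 CPM in replicate 1 and 18937 CPM in replicate 2 and was called higher in replicate 2. Mir125b-2 (681 and 587 CPM) and Mir33 (86.1 and 67.5 CPM) were called higher in replicate 1. Mir25, Mir125b-1 and Mir504 were not called, at 330 ± 3.17, 288 ± 10.2 and 42.8 ± 0.831 CPM. The share called over all genes tested was 31.0%. All 6 had 100 or more counts together, and of such genes 48.0% were called. The 2 Mir125b genes give the same mature microRNA, so their counts are uncertain. The median log2 ratio of the 6 was -0.05.

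The genes nearest to each of the 7 in level were found by the Euclidean distance of log2(CPM + 1) over the 2 hearts, and 2 were taken for each. Mir34a was nearest to Mir350 (distance 0.0824) and Mir223 (0.126), Mir34c to Mir3071 (0.0443) and Mir134 (0.0629), and Mir34b to Mir1249 (0.290) and Mir666 (0.369). Mir215 was nearest to Mir1983 (0.0445) and Mir369 (0.139), and Mir192 to Mir450-2 (0.0266) and Mir598 (0.0453). Mir194-1 was nearest to Mir30c-1 (0.231) and Mir669o (0.243), and Mir194-2 to Mir672 (0.0636) and Mir26a-2 (0.0896). The likeness rests on 2 values per gene and on level alone, and the 7 genes themselves were left out of the search. For the Mir194 genes it is uncertain, since their counts lack the reads that match both copies.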

How the data were processed

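Small RNA of 2 newborn mouse hearts was sequenced, 1 library each. The deposited tables hold raw read counts per gene on build mm10 with GENCODE M4, made by the authors from 1 alignment file per library, per the text files deposited with them. Aligner, counter and trimming: not given in the sources used here. The tables have no header, and the column with 92.9% and 92.8% of gene counts was read as the strand of the gene. Rows that name no gene stayed out of totals (35.9% and 34.6% of reads had several matches, 12.6% and 15.5% were unmapped, 1.93% and 2.28% fell in no gene). Names and positions are from GENCODE M21, which matched 1894 of 1973 identifiers, and the other 79 had 0 counts.

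CPM, exact Clopper-Pearson intervals, ratios and a 2-sided exact binomial test over all genes were computed. The test was tried on simulated counts with counting error only and no spread between animals. That trial therefore does not show how the test behaves between 2 animals. Log2 ratios between hearts used 0.5 added counts, and those between genes none. With 1 library per heart no model of spread could be fitted. The members and lists were chosen with earlier results of these data known. Named genes were the 7 genes, all genes of the p53 and seed lists, the leading cell type markers and the 2 genes nearest in level. Mir429, Mir205, Mir375, Mir144, Mir486, Mir155, Mir150, Mir208a, Mir499, Mir1a-1, Mir133a-1, Mir133a-2 and Mir9-3 were picked out of their lists after their values were seen. Alternatives were both strands, other totals and scalings, other count minimums and pseudocounts, each heart alone and preset spreads. Python 3.11.15 was used with SciPy 1.17.1, NumPy 2.4.6, pandas 2.3.3 and matplotlib 3.10.9, and R 4.3.3 with edgeR 4.0.16 and DESeq2 1.42.0 (size factors only).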

Additional observations from a re-analysis of the deposited data

How the results depend on the processing

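The share of the 7 genes was 0.136% with both strands, 0.169% without Mir126a in the total and 0.0659% of all reads, against 0.146%, since each changes the total, and 0.143% to 0.149% with 1 heart left out. The 6 ratios within clusters and families kept their direction with both strands and with each heart alone. These settings could hardly change it. Opposite-strand counts of the 7 genes were at most 2 per library, and each heart alone repeats the ratios given above. The reads that match both Mir194 copies could not be added, so the ratios with a Mir194 gene stay uncertain. With a heart left out the log2 ratio ran from 3.68 to 4.21 for Mir34c over Mir34b, 0.97 to 1.15 for Mir34a over the other Mir34 genes, 0.17 to 0.60 for Mir192 over Mir194-2, 2.39 to 2.69 for Mir215 over Mir194-1, 0.80 to 0.85 for Mir194-1 over Mir194-2 and 2.89 to 3.07 for Mir215 over Mir192. Of the 7 genes 2 were called between hearts (1 each way) without Mir126a in the totals. With DESeq2 size factors (not Mir34a) or a minimum of 1 count (not Mir34b) 3 were called. With TMM, both strands or a minimum of 100 counts 4 were called. Over all genes tested the share called was 30.6% without Mir126a, 30.1% with DESeq2 size factors, 30.6% with TMM and 32.7% with both strands. Mir215 turned direction without Mir126a in the totals, at a log2 ratio of -0.0045, and was called in neither setting. Under the edgeR exact test, a preset coefficient of variation of 0.1 left 0 of the 7 and 1 of 435 genes called, beside 0 and 29 whose unadjusted p was under 0.05. A preset of 0.2 in the edgeR exact test left 0 and 0 called, beside 0 and 4 unadjusted. Over all alternatives the adjusted p of Mir194-1 ran from 3.89e-05 to 1 and that of Mir34b from 0.0230 to 1. With a minimum of 1 count 18.0% of 717 genes were called and with 100 counts 49.1% of 275. No paired analysis was possible because there is 1 group. Of 435 genes, those with few counts that were not called cannot be called alike at this depth.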
